A study of Arabidopsis thaliana with 4 samples.

Results

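The 200 most strongly hybridising nuclear transcripts of 10-day-old Arabidopsis thaliana seedlings were taken from 22596 probe sets on an Affymetrix array. A probe set is a group of short oligonucleotides that reads 1 transcript or a few similar ones. Each array was divided by its median over these probe sets, the 4 arrays were averaged, and the 200 probe sets with the highest mean were kept. Affymetrix controls and the probe sets of the chloroplast and mitochondrial genomes had been left out first. Seedlings of the ecotype Col-0 were grown on Murashige-Skoog salts under long days at 23 °C, and total RNA was labelled with biotin. Of the 4 arrays, 2 held RNA of wild-type plants (numbered 1b and 2 in the labels) and 2 held RNA of 35S:miR396 plants (numbered 1 and 2), which overexpress the microRNA miR396 from a promoter of cauliflower mosaic virus that is active in most plant tissues. Nothing in the labels says whether the replicates were separate plants or cultures, or how many lines were used, so p-values cover only how far these arrays lie apart, which may be technical. In seedlings, fewer cells of a type and less RNA per cell cannot be told apart.

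Green seedlings devote much of their nuclear transcription to chloroplasts. Light is caught by antenna proteins, turned into electron flow by the photosystems of the thylakoid membrane, and the energy is spent on carbon fixation by rubisco and the Calvin-Benson cycle. Photorespiration recovers the carbon of rubisco's side reaction with oxygen, in peroxisomes and mitochondria as well as chloroplasts. MiR396 is known for cutting the transcripts of GROWTH-REGULATING FACTOR genes, none of which is among the named members.

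Signals are given below as multiples of the array median. The member at rank 200, AT1G09310, had a mean of 64.4 and the highest ranked probe set one of 241. The 5 probe sets just inside the limit had means between 64.4 and 64.9 (249331_at, 251218_at, 252115_at, 250995_at and AT1G09310). Just outside lay 248174_at, AT5G15200, AT2G20670, AT3G47650 and 250439_at, between 63.3 and 63.6. Probe sets differ in how well they bind their transcripts, so the order is one of hybridisation signal and not of transcript number. Members made up 0.885% of the ranked probe sets and held between 19.9% and 21.8% of the summed signal of an array. On a single array between 183 and 188 of them were among the 200 highest, and 164 were so on each of the 4.

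Most members could not be named. The platform annotation used here paired 50 of the 200 with 1 gene (25%) and 2 with several. It left 148 unnamed (74%), against 59% of the next 200 probe sets in the ranking and 38.4% of all ranked probe sets. The 11 highest ranked members are among the unnamed, the first 5 being 256309_at, 264474_s_at, 267002_s_at, 265033_at and 252430_at. What follows on functions therefore describes the 50 named genes and not the whole set. Probe sets of the type that can read several similar transcripts made up 16 members (8%), against 10% of the next 200 and 4.04% of all ranked.

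Photosynthesis and other plastid work, counting photorespiration, accounted for 26 of the 50 named members. They comprised 8 genes of photosystems and antenna, 4 of the thylakoid, 3 of carbon fixation, 3 of photorespiration, 2 of pigment synthesis, 4 of plastid gene expression and 2 of plastid redox control. The remaining 24 were 5 genes of the cytosol, 7 of secreted, vacuolar or wall proteins, 6 of stress and dormancy proteins and 6 others. Genes were also grouped by lists of symbols, which covered 21 photosynthesis and chlorophyll genes with a probe set of their own, and 12 of these were members. Both LHCB4.1 and LHCB4.2 were members, whereas LHCB4.3 of the same antenna family was at 6.06 and 7.77 on the wild-type arrays and at 6.71 and 6.93 on those of 35S:miR396. Of 9 listed genes of chlorophyll and tetrapyrrole synthesis, PORB alone was a member. CHLM, the methyltransferase that acts on magnesium protoporphyrin, came next on the list at rank 257. AT1G74470, the other gene of the pigment group and a member at rank 96, was not on the list. No named member belonged to the lists of 11 cytoskeleton, 56 cell wall, 13 chromatin or 17 transport genes. Members were 50 of 13203 named genes, and at that share lists of these sizes would mostly hold none. The 148 unnamed members could not be placed on any list. Markers of green shoots were high: RCA, LHCB4.1 and PSBW, the 3 of 6 green-shoot markers with a probe set of their own, were members. PYK10, a beta-glucosidase of roots and the 1 of 5 root markers read, gave 18.2 and 16.8 in wild type against 19.9 and 18.5 in 35S:miR396. ACT12, an actin of pollen and the 1 of 5 flower markers read, was at no more than 0.216 on any array, and 0 of 9 seed markers were read.

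**Figure D1:**
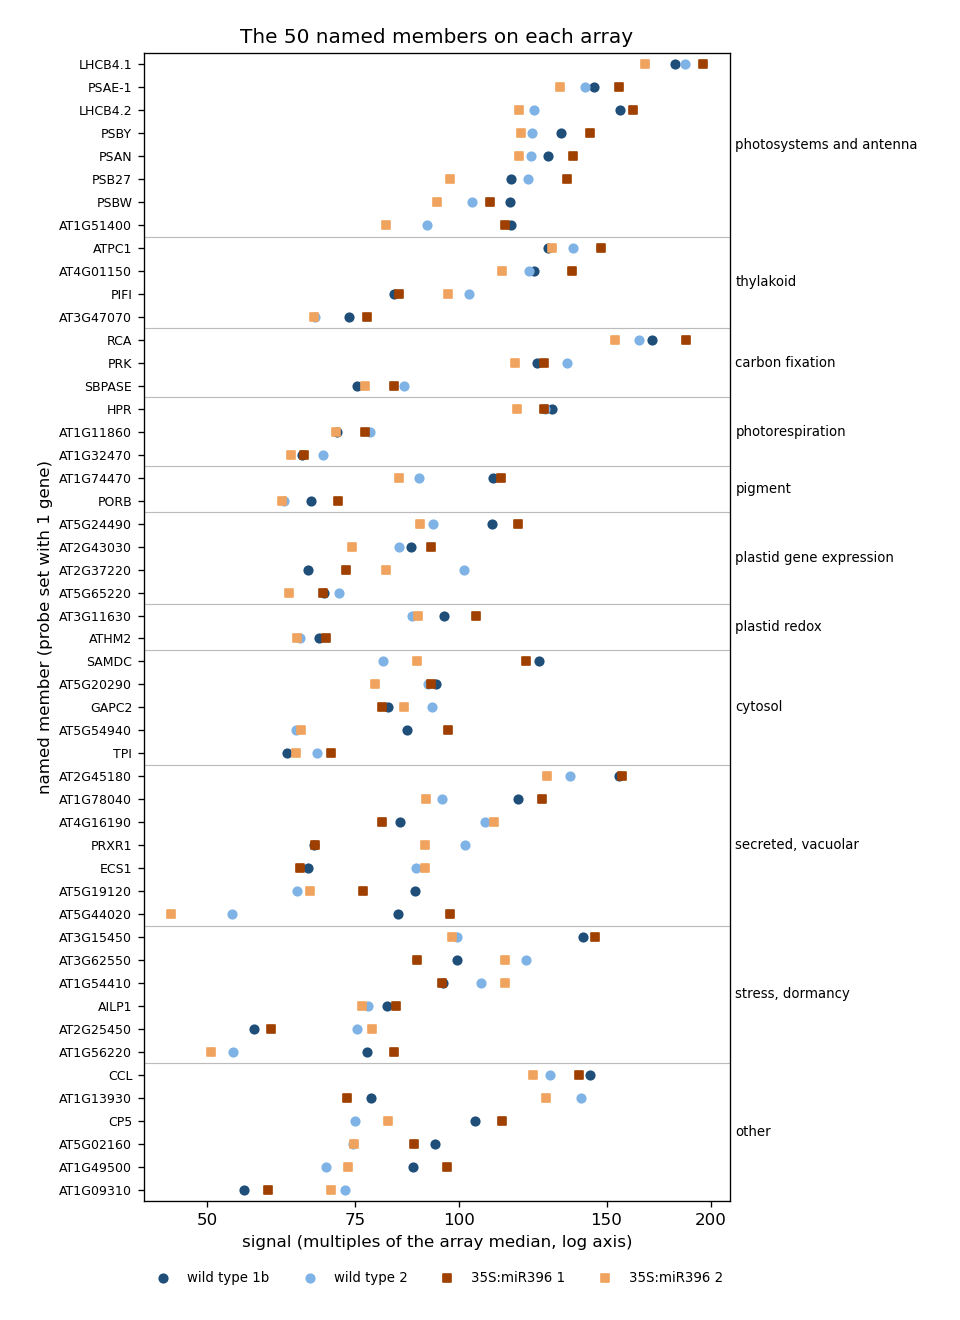
Signal of the 50 named members, grouped by role, on each of the 4 arrays, in multiples of the array median on a log axis. Each point is 1 array. With median scaling, the arrays of wild type (circles) and 35S:miR396 (squares) overlap in 48 of the 50, all but HPR and AT5G65220. These 2 are 4% of the named members, against 19.8% of all tested probe sets without overlap. The dark points (numbers 1 and 1b) and light points (number 2) lie apart for genes such as AT5G44020 and AT1G13930.

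Antenna and photosystem transcripts varied by less than 1.5-fold over the arrays. LHCB4.1, a minor antenna protein that links photosystem II with its outer antenna, gave 181 and 186 in wild type (1b, then 2) against 196 and 167 in 35S:miR396 (1, then 2). LHCB4.2, its close relative, was at 156 and 123 against 161 and 118. For LHCB4.1 both 35S:miR396 values lay outside the wild-type pair, 35S:miR396 1 above and 35S:miR396 2 below. On its deposited signals the order was reversed, with 13121 and 13240 in wild type against 11775 and 13507. For LHCB4.2 the arrays of each number lay together after median scaling. PSAE-1, a stromal-side subunit of photosystem I, was at 145 and 141 against 155 and 132. PSAN, a subunit on the lumenal side of photosystem I, was at 128 and 122 against 137 and 118. In both, 35S:miR396 1 was the highest array and 35S:miR396 2 the lowest after median scaling. On the deposited signals this was reversed, with 35S:miR396 1 the lowest and 35S:miR396 2 the highest. The deposited values of these 2 arrays were 9352 and 10682 for PSAE-1 and 8233 and 9556 for PSAN. The photosystem II proteins PSBY and PSBW were at 132 and 122 against 143 and 119, and at 115 and 103 against 109 and 94.0. PSB27, which helps to assemble and repair photosystem II, was at 115 and 121 against 135 and 97.5, and AT1G51400, a small photosystem II protein, at 115 and 91.5 against 113 and 81.7. Over the 8 genes the ratio of the highest to the lowest array lay between 1.16 and 1.41, with a median of 1.22.

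The other thylakoid genes and the enzymes of carbon fixation had ratios between 1.14 and 1.23. ATPC1, the gamma subunit of the chloroplast ATP synthase, was at 128 and 137 against 148 and 129. AT4G01150, annotated as CURT1A, which bends the thylakoid membrane at the grana margins, was at 123 and 121 against 136 and 112. The genotypes overlapped in both. PIFI, a factor of chlororespiration, was at 83.5 and 103 against 84.6 and 97.0, and AT3G47070, a thylakoid phosphoprotein, at 73.7 and 67.2 against 77.6 and 67.0, so that in these 2 genes the arrays of each number lay together. RCA, the activase that frees rubisco of bound sugar phosphates, was at 170.1 and 164 against 187 and 154. PRK, phosphoribulokinase, which remakes the acceptor of carbon dioxide, was at 124 and 134 against 126 and 117. SBPASE, a phosphatase of the same cycle, was at 75.5 and 85.8 against 83.5 and 77.2. In PRK and SBPASE neither genotype nor number set the arrays apart.

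Photorespiration genes were the most constant of the role groups by median ratio, at 1.10, where the groups of 2 to 8 genes ranged up to 1.38 for secreted and vacuolar proteins. HPR, the peroxisomal hydroxypyruvate reductase, gave 129 and 127 in wild type against 126 and 117 in 35S:miR396. AT1G11860, the T-protein of mitochondrial glycine decarboxylase, was at 71.4 and 78.2 against 77.2 and 71.3. AT1G32470, an H-protein of the same complex, was at 64.8 and 68.8 against 65.2 and 62.8. The 3 ratios of highest to lowest array lay between 1.09 and 1.10.

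The pigment, plastid gene expression and redox genes lay between ranks 88 and 193. PORB, a protochlorophyllide oxidoreductase that needs light, was at 66.5 and 61.6 against 71.6 and 61.4, and AT1G74470, annotated as geranylgeranyl reductase of chlorophyll and tocopherol synthesis, at 109.8 and 89.5 against 112 and 84.7. AT2G43030 and AT5G65220, proteins of the large plastid ribosomal subunit, were at 87.5 and 84.7 against 92.5 and 74.4, and at 68.9 and 71.8 against 68.6 and 62.5. AT5G24490, a plastid ribosome-associated protein, was at 109 and 93.1 against 118 and 89.7. The chloroplast RNA-binding protein AT2G37220 was the least constant plastid gene, at 65.9 and 101 against 73.2 and 81.7, a ratio of 1.53 with both number-2 arrays above the others. ATHM2, thioredoxin m2, was the most constant named member, at 68.0 and 64.5 against 69.3 and 63.9, a ratio of 1.09. AT3G11630, a peroxiredoxin of the chloroplast, was at 95.8 and 87.8 against 105 and 89.2.

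Members with other roles included housekeeping enzymes and proteins of the wall and vacuole. GAPC2 and TPI, cytosolic enzymes of glycolysis, were at 82.2 and 92.9 against 80.8 and 85.8, and at 62.3 and 67.5 against 70.2 and 63.9. AT5G20290, a protein of the small cytosolic ribosomal subunit, was at 93.8 and 91.8 against 92.5 and 79.4. SAMDC, S-adenosylmethionine decarboxylase of polyamine synthesis, was at 124 and 81.0 against 120.3 and 89.1. Only SAMDC of these 4 had a ratio of the highest to the lowest array above 1.5, with both number-2 arrays below the others. AT2G45180, of the lipid transfer protein family, was the highest ranked of the secreted group, at 155 and 136 against 157 and 127. AILP1, of the aluminium-induced protein family, was at 81.9 and 77.8 against 84.0 and 76.5, whereas AT3G15450 of the same family was at 141 and 99.5 against 145 and 98.1. CCL, a gene whose transcript is known for stability that changes over the day, was at 143 and 129 against 139 and 122. AT1G54410, annotated as the dehydrin HIRD11, was at 95.6 and 106 against 95.3 and 114, with both number-2 arrays above the others.

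The members as a whole varied over the arrays by a median ratio of 1.21 between the highest and the lowest. In 175 of the 200 (87.5%) the ratio was under 1.5, and of all 15817 tested probe sets 61% met this. For the next 200 probe sets the median was 1.23, with 83.0% under 1.5, and over all tested probe sets it was 1.39. A ratio of 2 or more was found in 5 members (2.5%), against 14.8% of all tested. These were AT5G44020 and the unnamed 252415_at, 253161_at, 262456_at and 248622_at, singled out after their values were seen, with ratios between 2.08 and 6.86. The 8 named members with the smallest ratios were ATHM2, both glycine decarboxylase genes, AILP1, HPR, TPI, SBPASE and AT5G65220, none above 1.15.

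**Figure D2:**
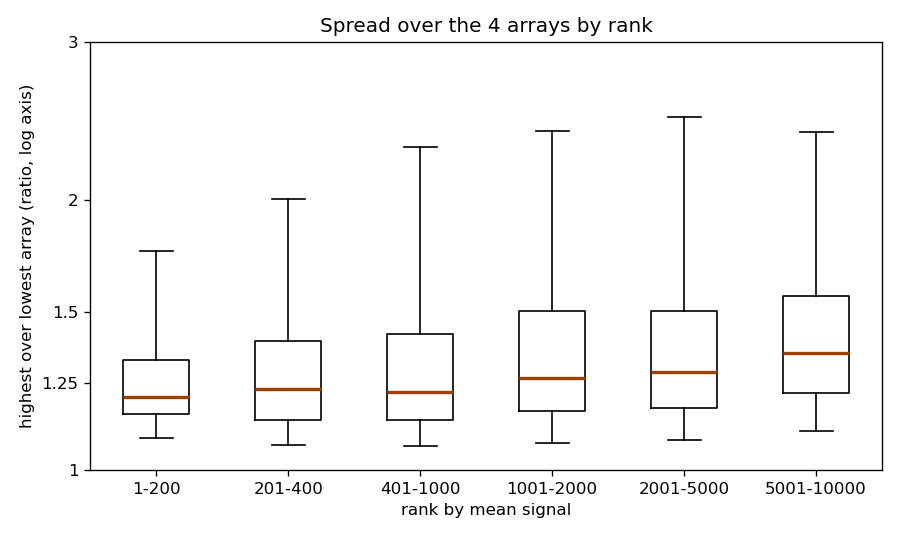
Ratio of the highest to the lowest of the 4 arrays (log axis) for probe sets in order of mean signal. Boxes span the quartiles with the median as a coloured line, and whiskers reach the 5th and 95th percentiles. The members, in the box farthest to the left, have a median of 1.21, and the median of the box farthest to the right is 1.35.

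Between 35S:miR396 and wild type, the contrast that bears on overexpression of miR396, none of the 200 members was called. On the log2 scale of median-scaled signal the differences between genotype means ran from -0.18 to 0.21, with a median of -0.01, and 172 members lay within 0.1 of 0. In limma, fitted over all 15817 tested probe sets, 0 members passed an adjusted p of 0.05 and 0 had an unadjusted p under 0.05. Over all tested probe sets, 0% passed (0, with 103 at an unadjusted p under 0.05). The half-width of a member's 95% interval was 0.30 at the narrowest, 0.38 in the median and 3.08 at the widest. This fit had no term for the number, so the intervals also take in differences between the numbers. An exact permutation test of 2 against 2 arrays cannot go below a p of 0.333. The median absolute difference was 0.04 in the members, 0.06 in the next 200 and 0.11 over all tested probe sets.

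Named members at both ends of the genotype order had intervals that included 0. PSBW, among the 5 named members lowest by moderated t, averaged 109 ± 8.27 (SD, n = 2) in wild type against 101 ± 10.4 in 35S:miR396, a log2 difference of -0.11 with a 95% interval from -0.48 to 0.26. AT5G20290, the ribosomal protein gene, was at 92.8 ± 1.37 against 86.0 ± 9.33, a difference of -0.11 with an interval from -0.47 to 0.24. PRK had a difference of -0.09 (from -0.42 to 0.24), AT5G65220 one of -0.10 and AT3G62550, of the universal stress protein family, one of -0.12. At the other end stood CP5, a membrane protein with a lipid-binding START domain, at 89.8 ± 20.7 against 97.4 ± 21.6, a difference of 0.12 (from -0.51 to 0.75). AT1G49500, AT3G11630, ATPC1 and PORB followed with 0.11, 0.08, 0.06 and 0.05. For RCA the means were 167 ± 4.33 and 170.2 ± 23.3, and for LHCB4.1 184 ± 3.52 and 181 ± 20.4.

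Few members kept the genotypes apart on all 4 arrays. Both 35S:miR396 arrays were above both of wild type in 3 members (1.5%, the unnamed 259625_at, 259544_at and 263761_at) and below in 7 (3.5%), HPR and AT5G65220 among them. Over the next 200 probe sets these shares were 5.5% and 8.5%, 14% in all. Over all tested probe sets they were 9.22% and 10.6%, 19.8% in all. All of these counts were made with median scaling. The labels number one wild-type array 1b and not 1, and every value within or between numbers assumes that it belongs with 35S:miR396 1. Within number 1 the median log2 difference between genotypes was 0.06, and within number 2 it was -0.08, and 50 of the 200 members (25%) had the same sign in both, against 49.8% of all tested probe sets. With quantile normalization both medians were at 0.00 and 81 members (40.5%) had the same sign, against 50.4% of all tested probe sets.

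Between the numbers more members were called, although the labels do not say what a number marks. In the fit with genotype as a term, 46 of the 200 (23.0%) passed an adjusted p of 0.05 in limma, and of all 15817 tested probe sets 22.8% passed, so the share is that of the background. In number 2, 13 members were higher (6.5%, background 10.8%) and 33 lower (16.5%, background 11.9%). With quantile normalization 55 passed (27.5%, against 19.5% of all tested), 27 higher and 28 lower, so the balance of directions depends on the scaling. Without a trend of the variance on mean level only 252415_at and 253161_at passed (1%, against 2.35% of all tested), and with no scaling 4 members did (2%, against 5.69%). Of the 46 calls, 41 were made with median, trimmed-mean and quantile scaling alike, 13 as higher and 28 as lower. Every call of a named member is among these 41, except LHCB4.2 and AT5G19120.

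**Figure D3:**
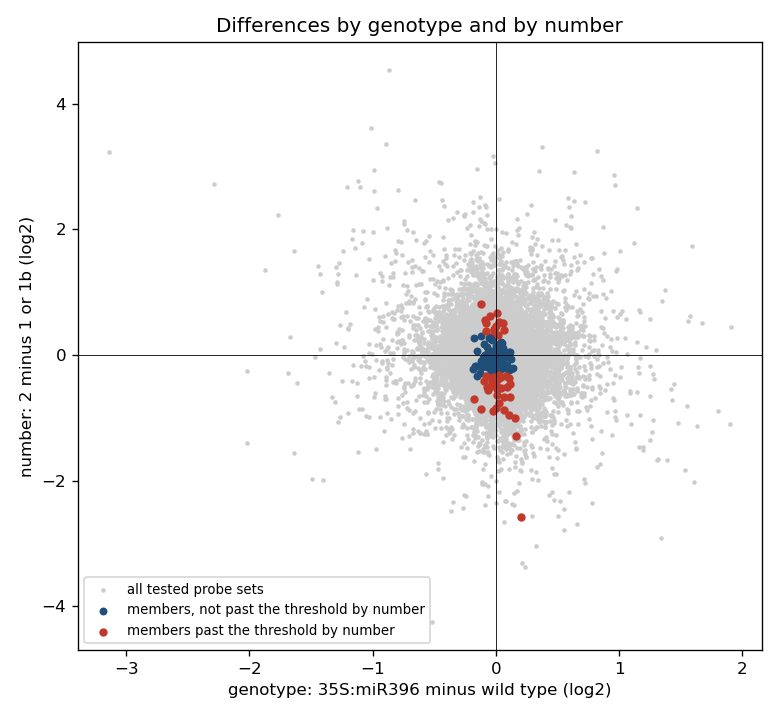
Log2 difference between genotypes (horizontal) and between numbers (vertical) for all tested probe sets (grey) and the 200 members (coloured). The members lie between -0.18 and 0.21 by genotype and between -2.57 and 0.81 by number, with those past the threshold by number in red.

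Because members were chosen by their mean over the 4 arrays, some are members only through the number in which they are high. The mean over the arrays of 1 number lay under 64.4, the limit of membership, in 26 of the 200 members and in 18 of the 46 called, 5 of these named (AT5G44020, AT1G56220, AT5G54940, AT2G25450 and AT1G09310). For those the difference by number is tied to the choice of members and is given as a description. The other 28 called members were above the limit in both numbers.

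Of the 50 named members 19 were called by number (38%), against 18% of the unnamed members and 22.8% of all tested probe sets. Of these 19, 12 fell in number 2 (24% of the named, background 11.9%). AT5G44020, of a family of acid phosphatases related to vegetative storage proteins, gave 84.4 and 97.4 in number 1 (wild type, then 35S:miR396) against 53.5 and 45.2 in number 2. Its log2 difference was -0.88. AT1G56220, of the dormancy and auxin associated family, was at 77.7 and 83.7 against 53.6 and 50.4, a difference of -0.63. Both genes reached the limit through number 1 alone. AT3G15450, the gene of the aluminium-induced family, had a difference of -0.53, and SAMDC one of -0.53. AT5G54940, of the SUI1 family of translation initiation factors, was at 86.6 and 97.1 against 63.8 and 64.6, a difference of -0.51. CP5 (-0.47), AT1G51400 (-0.40), AT1G78040 of the Ole e 1 allergen family (-0.38), AT1G49500 (-0.37) and AT1G74470 (-0.35) fell too. LHCB4.2 (-0.40) and AT5G19120, an aspartyl protease family gene (-0.34), passed with median scaling but not with quantile normalization, where their differences were -0.20 and -0.22 (adjusted p = 0.0506 and 0.101).

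The other 7 rose in number 2 (14% of the named, background 10.8%). AT1G13930 gave 78.3 and 73.4 in number 1 (wild type, then 35S:miR396) against 139.8 and 127 in number 2, a log2 difference of 0.81 with an interval from 0.58 to 1.05 (limma adjusted p = 4.14e-05). PRXR1, a class III peroxidase, was at 67.0 and 67.2 against 102 and 91.0, a difference of 0.52 (adjusted p = 0.00246). ECS1, a gene described in the response to Xanthomonas, was at 66.0 and 64.5 against 88.8 and 90.9, a difference of 0.46 (adjusted p = 0.00505). In all 3 genes the arrays of the numbers did not overlap, as in 78% of the members and 61% of all tested probe sets. AT2G25450, the dioxygenase of a hydroxylated glucosinolate, had a difference of 0.41, AT4G16190, of the papain family of cysteine proteases, one of 0.39, AT2G37220 one of 0.39 and AT1G09310 one of 0.32.

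By role, 4 of the 26 photosynthesis and plastid genes were called by number (LHCB4.2, AT1G51400 and AT1G74470 lower, AT2G37220 higher), with a median log2 difference of -0.14. That is 15.4%, against 22.8% of all tested probe sets, and the role groups are too small to set apart from that share. Of the 7 secreted and vacuolar genes 6 were called, 3 in each direction, and of the 6 stress and dormancy genes 3. Of the 5 cytosolic genes 2 were called, and of the 6 others 4. These counts include 5 genes that reached the limit of membership through 1 number alone. They are AT5G44020 (secreted), AT1G56220 and AT2G25450 (stress and dormancy), AT5G54940 (cytosol) and AT1G09310 (others). For them the call is tied to the choice of members. None of the 3 carbon fixation, 3 photorespiration, 4 thylakoid or 2 redox genes passed. RCA had a difference of -0.17 (adjusted p = 0.370), LHCB4.1 one of -0.10 and PRK one of 0.00. The half-widths of the members' 95% intervals by number ran from 0.23 to 0.28, and the smallest difference called was 0.32 in size. The largest difference of any member was that of the unnamed 252415_at, with 129 and 134 in number 1 against 19.6 and 25.2 in number 2, a log2 difference of -2.57. It too reached the limit of membership through number 1 alone, so this size describes how it was chosen as well.

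How the members as a whole stood between the numbers depended on the scaling. Median-scaled, 42 of 200 differences were above 0 and their median was -0.14, where the median over all tested probe sets was -0.04. After quantile normalization 111 were above 0 with a median of 0.01, and on the deposited signals 145 were above 0 with a median of 0.06, where that over all tested probe sets was 0.16. Arrays that did not overlap between the numbers gave 29 members higher in number 2 and 127 lower with median scaling (14.5% and 63.5%, against 26.8% and 34.2% of all tested), but 74 higher and 53 lower after quantile normalization (37% and 26.5%, against 29.2% and 31.8%). On the deposited signals the array median of 35S:miR396 2 was 34.6% above that of 35S:miR396 1, while the median of the members was 19.1% above. The median deposited signal of the members was 7268 and 6887 in wild type (1b, then 2) against 6298 and 7502 in 35S:miR396 (1, then 2). The highest member signal of an array lay between 15979 and 17815. Whether the scanner limited the brightest signals was not tested.

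**Figure D4:**
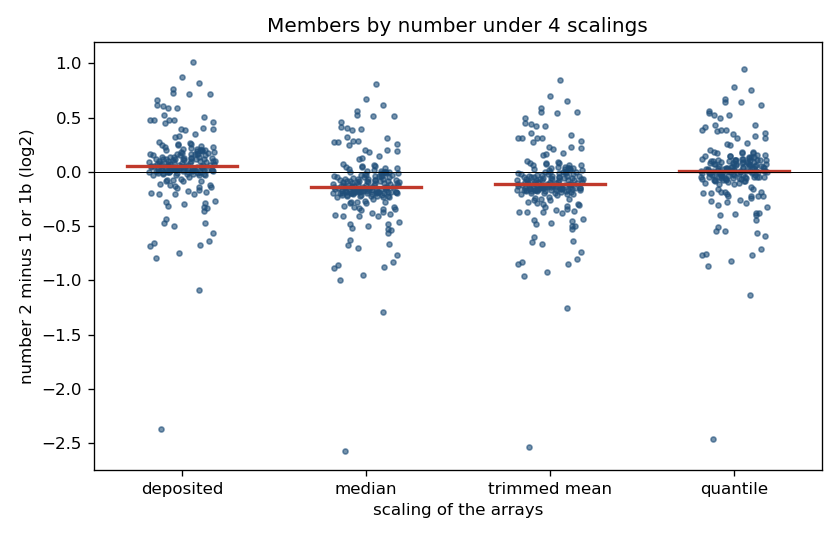
Log2 difference between number 2 and numbers 1 and 1b for each of the 200 members under 4 ways of bringing the arrays to a level, with the median as a red line. The median is 0.06 on the deposited signals, -0.14 after median scaling, -0.11 after scaling on the trimmed mean and 0.01 after quantile normalization.

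The order of the members was also shared within a number more than within a genotype. Spearman's rho over the 200 members, a description across probe sets that are not independent replicates, was 0.98 within number 1 and 0.97 within number 2. For the pair of wild-type arrays it was 0.77, and likewise 0.77 for the pair of 35S:miR396. The median absolute log2 difference of a member was 0.08 and 0.10 within the numbers, 0.12 within wild type and 0.24 within 35S:miR396. Over all tested probe sets these medians were 0.16, 0.15, 0.28 and 0.28, in the same order. The 200 highest probe sets of an array were shared by 190 and 189 within the numbers and by 170.0 and 176 within the genotypes.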

How the data were processed

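Total RNA of 2 wild-type and 2 35S:miR396 samples was read on 4 arrays. The deposited table holds intensity values per probe set on a linear scale, which, per the submitters' processing notes, the authors computed with MAS5. Its version, scaling and detection calls are not given in the sources used here. Of 22810 probe sets, 64 controls and 150 organelle probe sets were left out. Each array was divided by its median (60.2 to 81.0), and 6 values that were not positive took the smallest positive value before log2. The lowest 30% by mean were left out, all 200 members staying in. Genotypes, and numbers with genotype as a term, were tested in R 4.3.3 using limma 3.58.1 (lmFit, eBayes with a trend, two-sided, Benjamini-Hochberg over 15817 probe sets). The number of arrays limits the precision. Wild type 1b was taken as number 1, an assumption the labels do not settle. The scripts were tested on simulated data.

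Gene names came from the platform annotation, updated through RefSeq names of TAIR10.1. Roles of members were assigned by hand from general knowledge. Members and lists were chosen with earlier results of these data known. Named were the 20 highest single-gene members, those with the 8 smallest and 8 largest ratios, the 5 highest and 5 lowest by moderated t in each comparison, and up to 4 per list; others were named after their values were seen. Python 3.11.15, pandas 2.3.3, numpy 2.4.6 and matplotlib 3.10.9 prepared tables and figures.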

Additional observations from a re-analysis of the deposited data

How the results depend on the processing

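No member was called between the genotypes under any alternative run: deposited signals, quantile normalization, trimmed-mean scaling, no filter, the lowest 60% left out, a pseudocount, no trend, robust fitting, an adjusted p of 0.1, each array left out, or the replicate block. With the replicate number as a block, 20 of all tested probe sets passed, and 2 with the block and quantile normalization (the latter added after the data were seen), 0 of them members. Same-numbered arrays deviated together (correlation 0.63, identical for both pairs by construction), but the labels do not state a pairing. By number, 46 members and 3599 of all probe sets passed. Without scaling these were 4 and 900, without a trend 2 and 372, and with no filter 29 members. The members' median by number was 0.0573 without scaling and 0.0117 after quantile normalization. With an array left out the number comparison could not be fitted with a genotype term. The median ratio of highest to lowest array was 1.15 to 1.20 with arrays left out, 1.06 within number 1 and 1.07 within number 2 (2 arrays each, added later). The genotype median was -0.1173 to 0.1008 with arrays left out. Photosynthesis lists held 24% of named genes among the members, 43.5% among the 100 highest, 11.1% among the 400 highest and 6.5% among the 200 highest named genes. Other scalings kept all 200 members, arrays left out 193 to 196, and with organelle probe sets kept 17 of these entered.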

Other observations

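Below the limit, proteins of the cytosolic ribosome were counted among the named genes, with no test. Other roles were not assigned there, so the make-up as a whole was not compared. Among the 68 single-gene probe sets of the next 200, 11 read proteins of the cytosolic ribosome, counted by hand after their ranks were seen, against 1 (AT5G20290) among the 50 named members. AT3G49910, of the large subunit, gave 57.2 and 55.3 in wild type against 57.4 and 48.3 in 35S:miR396. None of the 11 passed between the genotypes in limma (log2 differences from -0.28 to 0.07), where 0% of all tested probe sets did. By number 3 of 11 passed, AT3G09200 higher (0.32) and AT1G52300 and AT5G27700 lower (-0.32 and -0.42), against 22.8% of all tested. Another 14 probe sets of these ranks read several genes and were not named.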
